A study of Mus musculus with 2 samples.

Results

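10 genes of late spermatogenesis were followed: the sperm chromatin genes Prm1, Prm2, Tnp1 and Tnp2, the acrosome and egg-binding genes Acr, Adam3 and Clgn, the sperm tail gene Odf1, and the glycolytic isozyme genes Pgk2 and Ldhc. A probe set was taken when the platform annotation gave it exactly 1 gene symbol and that symbol was a member. All 10 genes had at least 1 such probe set, 14 probe sets in all, out of 8251 genes and 12422 non-control probe sets on the array. No probe set with several symbols held a member.

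The RNA was polyadenylated RNA from whole testes of mice at day 10 after birth, 1 array from Mili+/- heterozygotes and 1 from Mili-/- homozygous mutants. MILI, the product of Piwil2, is a germline Piwi protein. Both groups carry the mutant Mili allele, and no wild-type array was analysed here. The labels do not give the number of mice or the kind of mutation, and with 1 array per genotype no value has a replicate and no p-value is given. The labels state that mutant germ cells stop at zygotene or early pachytene and that dying cells were seen from day 11.

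Germ cells switch on the members in order. Testis isozymes such as Ldhc and Pgk2 and the chaperone Clgn appear around pachytene of meiotic prophase, and acrosomal and tail genes follow in late spermatocytes and round spermatids. The transition proteins and protamines, which replace the histones so that the sperm nucleus can be packed, come last. Tubules of day 10 testes contain Sertoli cells, spermatogonia and early meiotic cells, so most of these genes are read here ahead of their stage.

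The promoters of 6 members are in the RefSeq table used (GRCm38.p6), and those of Ldha and Pgk1, somatic relatives of Ldhc and Pgk2, are shown beside them because their probe sets read far higher. Each sequence is the 100 bases before the first listed start, on the strand of the gene. Capitals mark letters of 3 common promoter elements, each searched on both strands. TATAA stands for the element that places the start of transcription. CCAAT stands for the element bound by the factor NF-Y. TGACG is the core of the cAMP response element, which CREM binds in spermatids.

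Prm1 (chr16:10796824-10796923, minus strand): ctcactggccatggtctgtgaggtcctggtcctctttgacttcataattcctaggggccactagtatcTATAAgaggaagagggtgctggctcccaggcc
Prm2 (chr16:10792106-10792205, minus strand): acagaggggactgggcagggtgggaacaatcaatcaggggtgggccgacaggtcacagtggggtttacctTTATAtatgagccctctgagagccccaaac
Tnp1 (chr1:73015900-73015999, minus strand): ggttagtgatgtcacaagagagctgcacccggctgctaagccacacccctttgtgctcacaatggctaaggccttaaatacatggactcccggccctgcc
Tnp2 (chr16:10788656-10788755, minus strand): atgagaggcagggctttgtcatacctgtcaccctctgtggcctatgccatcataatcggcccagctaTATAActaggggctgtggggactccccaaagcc
Pgk2 (chr17:40208610-40208709, minus strand): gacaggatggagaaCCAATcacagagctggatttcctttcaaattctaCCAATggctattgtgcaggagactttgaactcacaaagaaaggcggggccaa
Ldhc (chr7:46861163-46861262, plus strand): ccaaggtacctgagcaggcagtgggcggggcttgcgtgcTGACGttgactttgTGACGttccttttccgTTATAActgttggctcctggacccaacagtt
Ldha (chr7:46845704-46845803, plus strand): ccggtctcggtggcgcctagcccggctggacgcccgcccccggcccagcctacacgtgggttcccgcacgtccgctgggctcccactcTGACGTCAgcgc
Pgk1 (chrX:106187000-106187099, plus strand): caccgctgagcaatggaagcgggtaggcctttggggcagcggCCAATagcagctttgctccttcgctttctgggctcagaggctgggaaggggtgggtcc

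TATAA was found in 4 of the 6 members with a promoter in the table (Prm1, Prm2, Tnp2 and Ldhc), against 10.2% of the 32851 windows of this length in the table. In Prm2 it was on the opposite strand only, and in Ldhc it overlaps its reverse complement. TGACG was found in 1 member, Ldhc, at 2 places, against 10.5% of windows, and in Ldha it overlaps its reverse complement in the full palindrome. CCAAT was found in 1 member, Pgk2, at 2 places, and in Pgk1 at 1 place, against 18.9% of windows. The Ldhc and Ldha entries list 2 starts each, and none of the 3 motifs was in the windows of their second starts. These matches describe letters only.

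On both arrays the member probe sets lay in the lower part or near the middle of the signal range. The median signal over non-control probe sets was 38.5 in Mili+/- and 41.5 in Mili-/-, and a floor was set at the 20th percentile of each array (6.3 and 7). Of the 14 member probe sets, 7 were under the floor on both arrays, 2 lay between floor and median, and 5 reached the median on at least 1 array. Over all non-control probe sets 15.7% were under the floor on both arrays and 52.2% reached the median. No member probe set reached the 75th percentile (135 in Mili+/- and 132.5 in Mili-/-), and the highest ranks were percentile 57.4 in Mili+/- and 61.2 in Mili-/-, both from Tnp1.

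**Figure D1:**
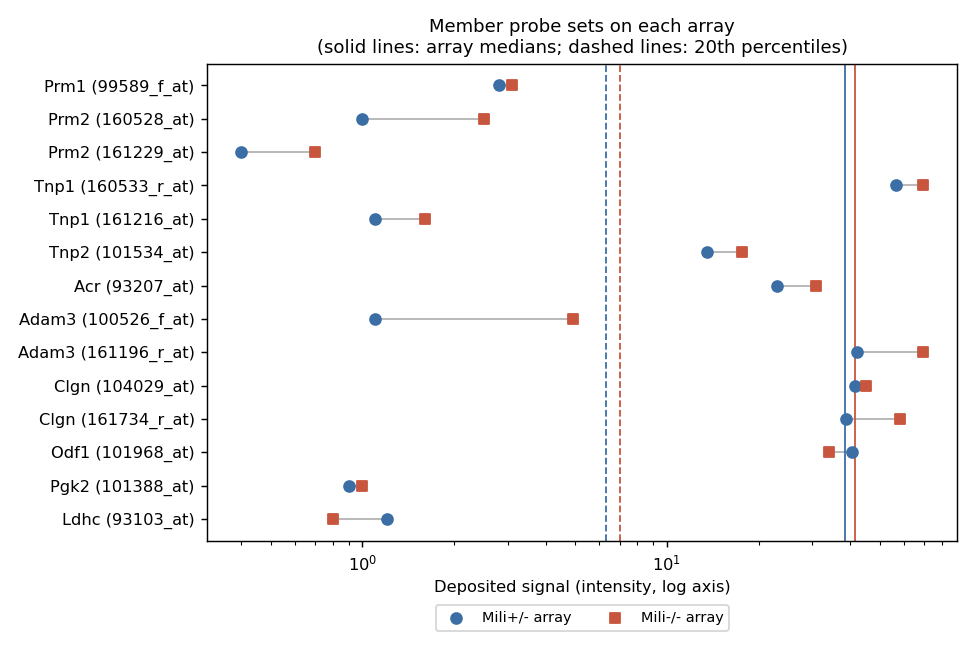
Deposited signal (intensity, log axis) of the 14 member probe sets on the Mili+/- array (circles) and the Mili-/- array (squares), with array medians as solid lines and 20th percentiles as dashed lines. The 7 probe sets left of the dashed lines include those of Prm1, Prm2, Pgk2 and Ldhc, and the 5 that reach the median belong to Tnp1, Adam3, Clgn and Odf1.

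The protamine genes gave some of the lowest signals on the arrays. Prm1, which encodes the arginine-rich protein that packs sperm DNA, read 2.8 in Mili+/- and 3.1 in Mili-/- (percentiles 10.8 and 10.3). Prm2, the second protamine, was read by 160528_at at 1.0 and 2.5 and by 161229_at at 0.4 and 0.7. All 3 protamine probe sets were under the floor on both arrays, where no difference between the genotypes can be read.

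The transition protein genes, whose products stand between histones and protamines, were less uniform. Tnp2 read 13.5 in Mili+/- and 17.7 in Mili-/-, below the median on both. Tnp1 was read at 56.4 and 69.5 by 160533_r_at, the highest member signals in each array, but at 1.1 and 1.6 by 161216_at. The Tnp1 probe sets thus stood on opposite sides of the floor and of the median, on both arrays alike. Prm1, Prm2, Prm3 and Tnp2 lie next to each other on chromosome 16, and Prm3 (5.7 and 7.6) was also near the floor.

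Of the acrosome and egg-binding genes, only probe sets of Adam3 and Clgn reached the median. Acr, which encodes the acrosomal protease acrosin, had 22.9 in Mili+/- and 30.8 in Mili-/-, below the median on both arrays. Clgn encodes calmegin, an endoplasmic reticulum chaperone of germ cells that sperm surface proteins need for their maturation. Its probe sets read 41.5 and 44.9 (104029_at) and 38.7 and 58.1 (161734_r_at), all close to or above the median.

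Adam3, a sperm surface protein that depends on calmegin, was again split between its probe sets. It had 42.1 in Mili+/- and 69.4 in Mili-/- by 161196_r_at, but 1.1 and 4.9 by 100526_f_at, under the floor on both arrays. Its genomic neighbour Adam5, of the same family, showed the same split, with 147 and 140 by 162388_r_at and 1.1 on both arrays by 99474_at. Odf1, a main protein of the outer dense fibres of the tail, had 40.6 and 34.0, above the median in Mili+/- alone.

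The germ cell glycolytic isozymes among the members were at the bottom of the range. Pgk2, an intronless copy of the X-linked Pgk1 that takes over in meiosis, had 0.9 in Mili+/- and 1.0 in Mili-/-. Ldhc, the testis lactate dehydrogenase subunit, had 1.2 and 0.8. Both were under the floor on both arrays. Their somatic relatives were bright, with Pgk1 at 190.5 and 212, Ldhb at 690 and 814, and Ldha, which lies next to Ldhc on chromosome 7, at 317 and 411.

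Signals of different probe sets do not compare transcript amounts, and the files came with no detection calls, so a low signal was not read as absence of the transcript. Calr, which encodes the general chaperone calreticulin, was read at 0.8 and 1.1 by its 1 probe set, and a second Ldhb probe set at 0.6 and 1.6. Nor was a signal at the median read as presence. Of 35 measured genes of eye, pancreas, liver, muscle and other tissues, 5 reached the median, and their signals ran from 0.5 to 99.8 in Mili+/- and from 0.7 to 124 in Mili-/-, a range that holds every member signal but the 0.4 of Prm2. Over the 2073 genes with several probe sets, 15.1% had 1 under the floor on both arrays and another that reached the median. Of the 4 members with several probe sets, Tnp1 and Adam3 did so, and Clgn and Prm2 did not.

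The wider set of late germ cell genes also ranked low. Of 122 such genes listed, 57 had a probe set of their own. The median rank of the brightest probe set was percentile 27.3 in Mili+/- and 28.8 in Mili-/- for 4 germ cell chromatin genes, 25.8 and 27.9 for 14 acrosome genes, and 32.2 and 31.2 for 16 tail genes. Germ cell isozymes (11 genes, 48.4 and 45.6) and pachytene genes with regulators of the spermatid programme (13 genes, 49.8 and 40.1) stood higher. For comparison, the 35 genes of other tissues had 27.9 and 28.2, the 10 members 35.8 and 39.0, and all genes 59.0 and 58.9.

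Genes of spermatogonia, early meiotic cells and Sertoli cells, which day 10 tubules hold, had higher median ranks. The median rank was percentile 76.4 in Mili+/- and 73.9 in Mili-/- for 7 genes of leptotene and zygotene spermatocytes, 82.4 and 77.2 for 12 genes of spermatogonia, and 81.2 and 88.5 for 12 Sertoli cell genes. For interstitial and other cells it was 64.8 and 63.8 for 8 Leydig cell genes, 95.2 on both arrays for 11 genes of peritubular cells and stroma, and 59.2 and 61.7 for 11 macrophage genes. Dazl, a germ cell RNA-binding protein gene, read 1342 and 1191, and the Sertoli cell gene Clu 2363 and 2636. Sycp3, a synaptonemal complex gene of zygotene cells, was nevertheless at 1.1 and 0.6 by its 1 probe set. Among markers of tissue that can be carried along with testes, 0 of 5 epididymis genes, 6 of 7 adipose genes and 2 of 4 red blood cell genes reached the median.

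**Figure D2:**
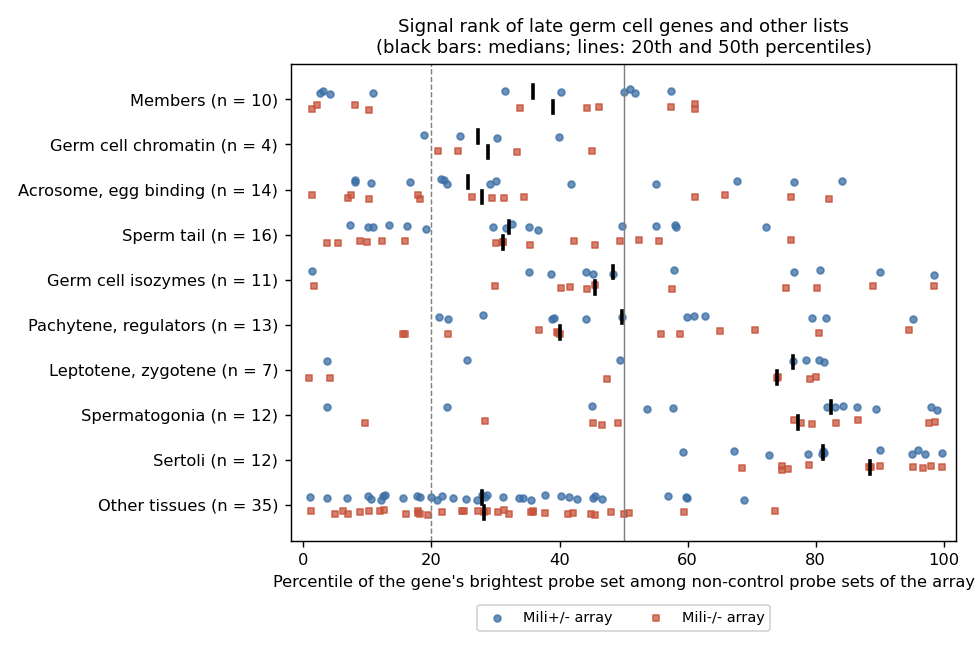
Rank of each gene's brightest probe set among the non-control probe sets of its array, in percent, for the members and 9 other lists on the Mili+/- array (circles) and the Mili-/- array (squares); black bars are medians. The members spread from percentile 2.6 to 57.4 in Mili+/-, while all 12 Sertoli cell genes lie above the 50th percentile on both arrays.

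Differences between the arrays are given as log2 of Mili-/- over Mili+/- after each array was centred on its median, which removed a shift of 0.11. Of the 5 member probe sets that reached the median on either array, 0 were 2-fold different, against 1.16% of the 6484 probe sets that did so. At 1.5-fold there was 1, that of Adam3, against 8.27% of these probe sets. The central 95% of differences over the 6484 lay between -0.71 and 0.63, around a median of -0.12, and all 5 members were inside it. The SD between probe sets of the same gene was 0.31 over 720 genes. In whole testes, fewer cells of a type and less RNA per cell cannot be told apart.

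Adam3 had the largest difference, 0.61 (1.53-fold higher in Mili-/-), by 161196_r_at. The other Adam3 probe set was under the floor and gave no second reading. Clgn was 0.48 (1.39-fold higher) by 161734_r_at but 0.00 by 104029_at.

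Tnp1 stood at 0.19 (1.14-fold higher), and Odf1 at -0.37 (1.29-fold lower in Mili-/-), having reached the median through the Mili+/- array alone, which favours a lower value. Below the median, Acr stood at 0.32 and Tnp2 at 0.28. The 3987 probe sets in that zone had a median of 0.04 and a central 95% range from -1.28 to 1.33, which holds both.

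**Figure D3:**
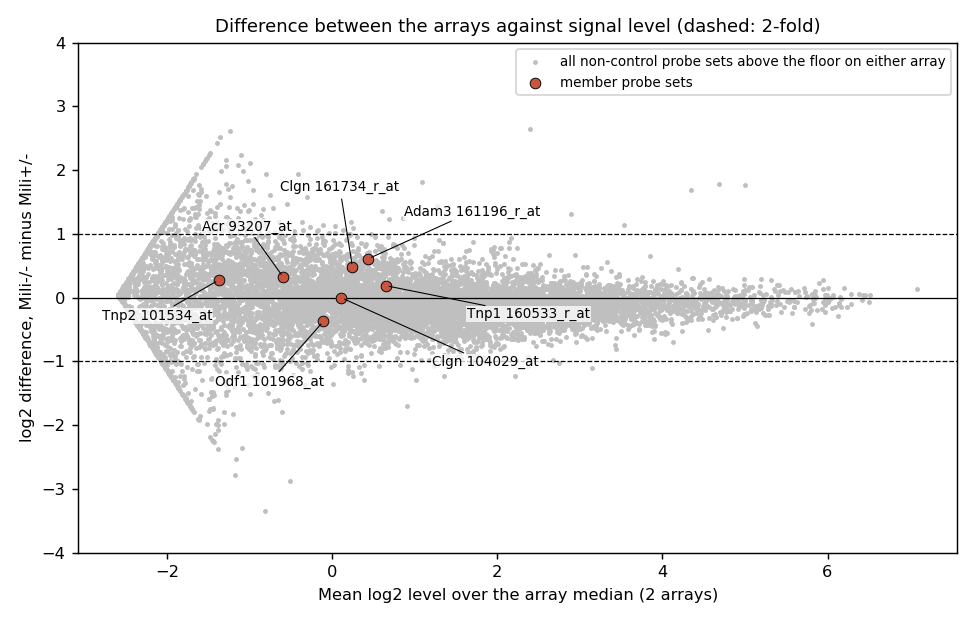
The log2 difference (Mili-/- minus Mili+/-) against the mean log2 level over the array median for all non-control probe sets above the floor on either array (grey) and the 7 member probe sets among them (red); dashed lines mark 2-fold. The members run from -0.37 (Odf1) to 0.61 (Adam3) and lie inside the grey cloud.

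The 3 highest differences among the members that reached the median came from probe sets whose suffix, _r_at, marks relaxed rules of probe selection. The 258 such probe sets past the same filter had a median difference of 0.13 and a central 95% range from -0.90 to 1.13, and 64.0% of them were higher in Mili-/-. The 5329 plain _at probe sets had a median of -0.13 and a range from -0.71 to 0.55, and 30.2% were higher. Adam3, Clgn and Tnp1 are inside the _r_at range, and the plain _at probe sets of Clgn (0.00) and Odf1 (-0.37) inside the _at range. Over the 4 member genes that reached the median, the median difference was 0.33 with the brightest probe set of each. It turned to -0.18, over Clgn and Odf1 alone, without probe sets of any suffix for shared sequence or relaxed selection. The part of the suffix in these differences was not tested.

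**Figure D4:**
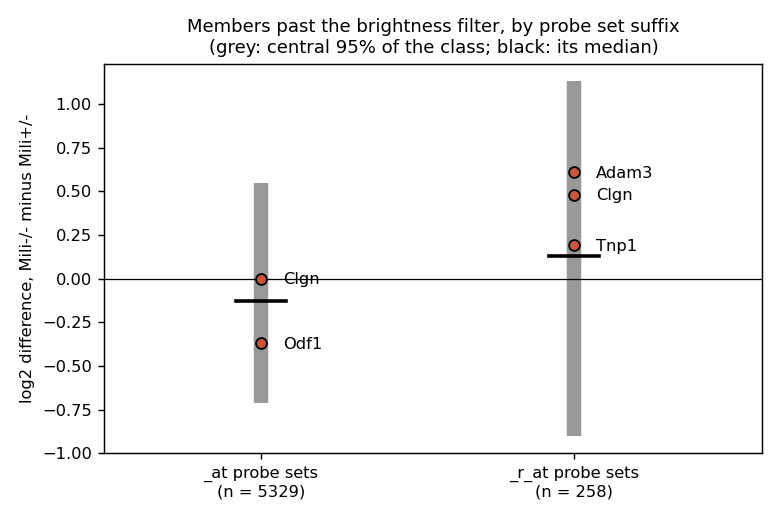
The log2 differences (Mili-/- minus Mili+/-) of the 5 member probe sets that reached the array median (red), set in the class of their suffix; grey bars span the central 95% of the class and black lines its median. Adam3 (0.61), Clgn (0.48) and Tnp1 (0.19) stand among the 258 _r_at probe sets, whose median is 0.13, and Clgn (0.00) and Odf1 (-0.37) among the 5329 _at probe sets, whose median is -0.13.

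Most member signals were nominally higher in the Mili-/- array. As deposited, 12 of the 14 probe sets read higher there and 2, Odf1 and Ldhc, lower. This count includes the 7 under the floor on both arrays, where no difference can be read. Of all non-control probe sets 54.1% read higher, and of those under the floor on both arrays 62.4%. After centring, 6 of the 7 member probe sets above the floor on either array were above 0, that of Clgn by 104029_at at only 1.003-fold, against 40.7% of all such probe sets. The members share their 2 arrays, and no test was made of these counts.

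The wider late germ cell genes that reached the median read lower more often than higher, as did all genes. Of the 19 that reached the median, 4 were higher and 15 lower in Mili-/-, with a median of -0.23. Of all 5095 genes that did so, 1582 were higher and 3513 lower, with a median of -0.13. The 19 hold bright genes such as Gstm5 (1100 and 1099) and Ppp1cc (514 and 471). Which cells of the testis gave these signals was not tested. Without centring the wider genes split 5 to 14 (median -0.12) and all genes 2410 to 2676 (median -0.02). With quantile normalization or loess, the wider genes split 4 to 15 with a median of -0.12, against -0.01 for all genes. Whether members and wider genes differ was not tested. Of the 19, 0 were 2-fold different, against 0.844% of the 5095 genes. By list, the median was -0.22 for 4 acrosome genes, -0.33 for 4 tail genes, -0.11 for 5 isozyme genes and -0.24 for 6 pachytene genes. These medians depended on scaling. Over no centring, quantile normalization and loess they ran from -0.11 to -0.08 for acrosome genes, from -0.29 to -0.22 for tail genes, from -0.03 to 0.00 for isozyme genes and from -0.13 to -0.12 for pachytene genes. Without the filter, the median of 11 tail genes was -0.04. With both arrays required to reach the median, that of 3 tail genes was -0.23. No germ cell chromatin gene of the list reached the median.

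Among the acrosome genes, Pick1, a scaffold protein of acrosome formation, read 49.8 and 69.7 (0.38), but a second probe set stood at -0.07. Adam5 stood at -0.18, Agfg1, needed for acrosome assembly, at -0.26, and the kinase subunit gene Csnk2a2 at -0.33. Csnk2a2 also had a probe set at 0.18.

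Of the tail genes, Spata6 read 119 and 140.5 (0.12). Odf2, a partner of Odf1 in the outer dense fibres, read 58.3 and 53.5 (-0.23), with a second probe set at -0.84. Spa17, a sperm surface and tail protein gene, was at -0.43 and Dnajb13, of the axonemal radial spoke, at -0.42. Dnajb13 and the second Odf2 probe set reached the median only in Mili+/-, which favours a lower value.

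Among the isozymes, the cytochrome oxidase subunit genes Cox6b2 (-0.52, and -0.41 in a second probe set past the filter) and Cox8c (0.12) went in opposite directions. Pdha2, the testis pyruvate dehydrogenase subunit, read 57.7 and 58.3 (-0.10), and the ribosomal protein gene Rpl39l was at -0.25. Of the pachytene list, the histone chaperone gene Nasp read 168 and 106 (-0.77), the lowest value of the 19, and Hspa2, the heat shock protein of spermatocytes, 63.9 and 54.4 (-0.34). Tbpl1, a TBP relative needed in spermatids, was at -0.21. Cdc25c was at 0.05, with a second probe set at -0.71 that reached the median only in Mili+/-.

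The somatic relatives past the filter lay between -0.28 and 0.26. Ldha stood at 0.26, Ldhb at 0.13, Pgk1 at 0.04 and Pdha1 at 0.00 (266 and 287). Cycs stood at -0.24, and Canx, the calnexin relative of Clgn, at -0.22. Of the Adam family, Adam10 stood at -0.13, with a second probe set at 0.32 that reached the median only in Mili-/-. Adam9 stood at -0.28, Adam15 at -0.23 and Adam17 at 0.34, the latter pair below the median.

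Many markers of the cells that testis samples can hold also differed between the arrays. Beside them, 3513 of all 5095 genes that reached the median were lower in Mili-/-, with a median of -0.13. Of the spermatogonia genes that reached the median, 9 of 9 were lower in Mili-/- (median -0.44). Among them, Id4 (-0.33) and Sall4 (-0.84) reached it only in Mili+/-, which favours a lower value. Of the measured genes that did not reach it, Gfra1 stood at 0.62, Pou5f1 was 0.998-fold after centring (30.0 and 32.3), and Ret was under the floor. The summed signal over all 12 measured genes was 3577 in Mili+/- and 3047 in Mili-/-. Dazl (1342 and 1191) and Uchl1 (930 and 834) were its largest parts. Of the leptotene and zygotene genes 4 of 4 were lower (median -0.30), with sums of 716 and 620 over 7 genes. Of the Sertoli cell genes 8 of 12 were higher (median 0.10), with sums of 5454 and 6303. The largest marker shift was in adipose genes, where 6 of 6 were higher (median 0.77) and the sums over 7 genes were 346 and 632. Car3, a carbonic anhydrase of fat and muscle, read 36.7 and 101 (1.36) and was the only one of the 6 past 2-fold. Retn, which did not reach the median, read 4.3 and 30.0 (2.14). Of these 6 genes, Adipoq, Fabp4 and Car3 reached the median only in Mili-/-, so their selection leans to higher values. Red blood cell genes were higher in 2 of 2 (median 0.55, sums of 1451 and 1916 over 4 genes). Leydig cell genes were lower in 4 of 5 (median -0.23), though their sums over 8 genes were 1409 and 1625. The largest part of these sums was Nr5a1 (602 and 883), the only higher gene of the 5. The measured Leydig cell genes that did not reach the median, Hsd3b6 (0.56), Hsd17b3 (0.42) and Insl3 (0.38), were all higher. Genes of peritubular cells and stroma were higher in 7 of 10 (median 0.03) and macrophage genes in 4 of 7 (median 0.10). The red blood cell gene Alas2 and the macrophage gene Cx3cr1, both higher, reached the median only in Mili-/-. Star, among the lower Leydig cell genes, reached it only in Mili+/-. Such selection favours the direction counted. All these sums were of deposited signals, by each gene's brightest probe set. That of the 10 members was 220 and 287. It held the _r_at probe sets of Tnp1 (56.4 and 69.5), Adam3 (42.1 and 69.4) and Clgn (38.7 and 58.1). The other probe sets of Tnp1 and Adam3 were under the floor, and Clgn was at 0.00 by 104029_at. Under the other scalings 8 or 9 of the 9 spermatogonia genes and 3 of the 4 leptotene and zygotene genes were lower (Ddx4 and Brca2 turned), and 9 or 10 Sertoli cell genes were higher. Adipose genes remained higher in 6 of 6 and red blood cell genes in 2 of 2, while Leydig cell genes were lower in 3 of 5. Of all 5095 genes, 2676 were lower without centring, 2626 with quantile normalization and 2627 with loess. The part of the cell type markers in the member differences was not tested. Piwil2 itself had no annotated probe set, and the labels of genotype could not be set against its transcript.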

How the data were processed

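The authors deposited a linear intensity for each of 12488 probe sets on each array, and 66 controls were left out. How the intensities were extracted, background-corrected and scaled is not given in the sources used. After trimming 2% of probe sets at each end, the mean was 100.05 on both arrays, as after scaling to a common level. Symbols came from a platform annotation (10833 probe sets with 1 symbol, 396 with several, 1193 with none listed), updated through the Entrez ID for 10817.

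Signals below an array's 20th percentile were set to it, and log2 values were centred on the array's median. A difference was read where the brighter array reached its median, and given as a value between floor and median. A gene took its brightest probe set. The SD between probe sets of a gene (1533 probe sets) is the only error available and covers neither mice nor hybridisations. The number of arrays limits the precision. Named genes were all members and somatic relatives and, of each wider list, the 2 highest and 2 lowest past the filter. Prm3, Gstm5, Ppp1cc and all cell type markers named singly, such as Sycp3, Dazl, Clu and Car3, were chosen after their values were seen. Calr is 1 of the somatic relatives, and its use as an example was also chosen then. Members and lists were chosen with earlier results of these data known. The code was tested on simulated data. Python 3.11.15, NumPy 2.4.6, pandas 2.3.3, statsmodels 0.14.6 (loess, span 0.4) and matplotlib 3.10.9 were used.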

Additional observations from a re-analysis of the deposited data

How the results depend on the processing

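Under no centring, quantile normalization, loess on brightness and both changes of floor, the 7 member differences above the floor moved by less than 0.31. They ranged from 0.61 to 0.72 for Adam3, from -0.37 to -0.26 for Odf1 and from 0.02 to 0.39 for Tnp2. The member median of 0.33 became -0.18 without probe sets that carry a suffix. The count of members past 2-fold went from 0 to 1 at a 1.5-fold threshold. It was 2, Prm2 (1.21 by 160528_at) and Adam3 (2.05 by 100526_f_at), with neither floor nor filter, an alternative chosen after seeing the data, where all 14 probe sets have a value and signals are as low as 0.4. Against the median of probe sets with 1 symbol (43.4 and 45.8), 3 member probe sets instead of 5 reached it, those of Tnp1, Adam3 and Clgn with the suffix _r_at. In the wider lists, 1 tail gene and 1 isozyme gene were past 2-fold without the filter, 1 pachytene gene at the 1.5-fold threshold, and 5 acrosome, 3 tail, 1 isozyme and 1 pachytene genes with neither floor nor filter. No share over all genes was taken for these wider counts, and none over all probe sets for the 2 members. Such counts thus have no background to be read against. The tail median was 0.12 with the filter at the 75th percentile, which left 1 gene. The causes were not tested, beyond the fewer genes that a stricter filter or no suffix leaves. No paired analysis was possible because each genotype had 1 array. No replicate could be left out for the same reason. Low signals limit what can be read for Prm1, Prm2, Pgk2 and Ldhc.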
